A study of Mus musculus with 7 samples.

Results

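Aldoa, Aldoc, Gapdh, Pgk1, Eno2, Ldhb, Ldhc and Pdha1 are enzymes of glycolysis and of the fate of pyruvate. They were taken from the array by gene symbol, and these 8 genes, with 1 spot each, are among 203 named genes. They were measured in soleus, a calf muscle rich in slow fibres, of wild-type 129/SV mice that served as cage controls. The 7 samples form 1 group with no treatment contrast. Of these samples, 6 carry the code C15 in their titles and replicate 5 carries C16, and what the codes mean, and the age and sex of the mice, is not stated in the labels. Titles differ in their number, but nothing says that the samples are separate animals, so the p-values measure the spread between these samples, which may be technical. RNA came from cryosections of the muscle belly, so fewer cells of a type and less RNA per cell cannot be told apart. The questions are how large each enzyme's signal was, how its isoenzymes stood to each other and which steps varied together.

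Glycolysis splits glucose into pyruvate and makes ATP without oxygen. Aldolase cuts the sugar, Gapdh oxidises the resulting triose, Pgk1 makes the first ATP of the payoff phase and enolase leads on towards pyruvate. Lactate dehydrogenase exchanges pyruvate and lactate, while Pdha1, a subunit of the pyruvate dehydrogenase complex, sends pyruvate to the mitochondria. Several steps have isoenzymes: Aldoa is the form of muscle and Aldoc that of brain, Eno2 is the neuronal enolase, and Ldhb is the form of heart and oxidative muscle, Ldha that of fast muscle and Ldhc that of testis.

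The 250 bases before the transcription start are shown for 4 members, from RefSeq (build GRCm38.p6), 5′ to 3′. Gapdh and Ldhc are shown because they were the only pair of members whose correlation passed the threshold, Ldhb as the isoenzyme of Ldhc, and Pgk1 as the gene that varied least as deposited. Where RefSeq lists several starts for a gene, the most upstream was used, which concerns Ldhc here. Capitals mark ACGTG and GCGTG, the letters of the element bound by hypoxia-inducible factors, and GGGCGG, the GC box, searched on both strands.
Gapdh, chr6:125165774-125166023, minus strand: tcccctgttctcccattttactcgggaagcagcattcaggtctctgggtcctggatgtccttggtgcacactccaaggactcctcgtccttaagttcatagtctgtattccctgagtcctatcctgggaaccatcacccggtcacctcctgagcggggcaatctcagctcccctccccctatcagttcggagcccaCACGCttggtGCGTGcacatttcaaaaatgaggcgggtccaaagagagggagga
Pgk1, chrX:106186850-106187099, plus strand: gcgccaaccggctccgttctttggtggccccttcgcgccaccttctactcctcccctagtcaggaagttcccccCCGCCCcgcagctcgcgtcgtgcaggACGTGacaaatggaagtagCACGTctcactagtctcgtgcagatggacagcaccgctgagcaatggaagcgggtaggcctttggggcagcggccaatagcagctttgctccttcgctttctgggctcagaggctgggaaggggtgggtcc
Ldhb, chr6:142507958-142508207, minus strand: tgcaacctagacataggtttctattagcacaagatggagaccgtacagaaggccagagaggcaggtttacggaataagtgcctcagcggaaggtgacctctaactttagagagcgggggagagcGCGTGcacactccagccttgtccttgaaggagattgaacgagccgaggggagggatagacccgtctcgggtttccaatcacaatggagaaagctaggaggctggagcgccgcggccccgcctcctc
Ldhc, chr7:46861013-46861262, plus strand: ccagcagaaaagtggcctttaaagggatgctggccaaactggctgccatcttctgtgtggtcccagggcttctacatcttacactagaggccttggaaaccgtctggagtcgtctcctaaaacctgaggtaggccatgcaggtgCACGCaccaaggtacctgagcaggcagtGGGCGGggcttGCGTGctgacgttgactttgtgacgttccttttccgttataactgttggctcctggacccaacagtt
ACGTG was found upstream of 1 of the 8 members, Pgk1, and in 16.5% of 27025 mouse promoters of the same length. GCGTG was found in 5 of 8 members and in 28.3% of all promoters. GGGCGG was found in 3 of 8 members and in 33.0% of all promoters. These matches describe the letters of this window and were not tested as binding sites.

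Values are the share that a spot took of the summed array signal, in percent. The floor of an array is the 10th percentile of its named spots, which ran from 0.02% in replicate 5 to 0.13% in replicate 1. A gene counts as above the floor where it exceeded 2 times that value on every array. This held for 7 of the 8 members, against 21.7% of all 203 genes, and Ldhc was the exception. Each value has 4 decimals as a ratio, so a signal near the floor has 1 or 2 significant digits. All 8 skeletal muscle markers on the array lay above the floor, with a summed signal of 24.01% to 32.68%. Of the 5 endothelial markers, only Cdh5 did, and the 5 summed to 0.45% to 1.06%. Of the adipocyte markers, Fabp4 lay above the floor and Pparg did not, with a sum of 0.43% to 0.7%. The immune markers Il1b and Il6 lay near it, with a sum of 0.05% to 0.43%. The markers of nerve, blood and testis fixed for this work were not among the named genes of the array, so they could not be analysed.

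Together the 8 members took 25.8% ± 4.15 (SD, n = 7) of the summed signal. Their sum was 18.13% in replicate 1 and 31.34% in replicate 5, with the other samples between 23.25% and 27.59%. Nearly all of this lay in Aldoa, Gapdh and Ldhb, and the remaining 5 members summed to 2.07% ± 0.279 (SD, n = 7). Spots differ in primer and probe, so these shares do not rank the transcripts.

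Aldolase A, the muscle aldolase, was well above the floor in every sample. Aldoa was at 6.57%, 12.56%, 9.6%, 9.94%, 15.09%, 10.27% and 11.29% in replicates 1 to 7, a mean of 10.8% ± 2.65 (SD, n = 7). Replicate 1 was the lowest and replicate 5 the highest, 2.30 times apart. Aldoc, the brain form, was at 0.48%, 0.41%, 0.21%, 0.22%, 0.41%, 0.39% and 0.36%, a mean of 0.354% ± 0.102 (SD, n = 7). It was low in replicates 3 and 4, while the other 5 samples lay between 0.36% and 0.48%. Aldoc exceeded the floor of its array 3.69 to 20.5 times.

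Gapdh, the triose oxidising step, was at 7.82%, 9.63%, 13.46%, 12.46%, 11.69%, 10.28% and 7.49% in replicates 1 to 7. Its mean was 10.4% ± 2.27 (SD, n = 7), with replicates 1 and 7 the lowest and replicates 3 and 4 the highest. Pgk1, the ATP-making step that follows, was at 0.44%, 0.47%, 0.4%, 0.39%, 0.36%, 0.45% and 0.4%, a mean of 0.416% ± 0.0387 (SD, n = 7). Its highest sample was 1.31 times its lowest. As deposited, Pgk1 had the smallest spread of all 203 genes, with an SD of 0.13 on the log2 scale and a coefficient of variation of 9.30%. The next smallest SDs were 0.14 for Cox8a, a cytochrome oxidase subunit, and 0.16 for the kinase gene Dmpk. The place of Pgk1 belongs to the scale: its rank from the smallest was 1 with part of the floor subtracted, 155 of 203 after quantile normalization, 162 with equal medians and 140 with the trend in spot position removed.

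Eno2, the neuronal enolase, lay above the floor in all samples, by 2.46 times in replicate 1 and by up to 11.5 times in replicate 5. It was at 0.32%, 0.34%, 0.23%, 0.26%, 0.23%, 0.21% and 0.46% in replicates 1 to 7, a mean of 0.293% ± 0.0883 (SD, n = 7). Replicate 7 was the highest. The muscle enolase Eno3 was not among the named genes of the array.

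Ldhb, the lactate dehydrogenase of oxidative muscle, was at 1.57%, 2.81%, 2.63%, 3.27%, 2.5%, 3.09% and 2.01% in replicates 1 to 7, a mean of 2.55% ± 0.597 (SD, n = 7). Replicates 1 and 7 were the lowest. Ldhc, the testis form, was at 0.25%, 0.12%, 0.1%, 0.08%, 0.07%, 0.12% and 0.22%, a mean of 0.137% ± 0.0699 (SD, n = 7). Its signal stayed between 1.92 and 3.5 times the floor of its array, and it exceeded 2 times the floor on 2 of 7 arrays. In replicates 2, 3, 4 and 6 it stood at 2 times the floor, so its place near the floor rests on values at the limit. Ldha, the lactate dehydrogenase of fast muscle, is no member but stood as low, at 0.21%, 0.14%, 0.08%, 0.07%, 0.05%, 0.1% and 0.14%. It was between 1.56 and 2.5 times the floor, also above 2 times it on 2 of 7 arrays. Values this close to the floor do not show that a transcript was present or absent.

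Pdha1, which opens the path of pyruvate into the citrate cycle, was at 0.68%, 0.84%, 0.62%, 0.97%, 0.99%, 1% and 1.02% in replicates 1 to 7. Its mean was 0.874% ± 0.165 (SD, n = 7), with replicates 1 and 3 the lowest. Pdha2, the testis form of this subunit, lay within 1 to 1.5 times the floor. Of 33 further genes fixed for glycolysis and pyruvate, 4 were on the array, and all 4 lay near the floor: Ldha, Pdha2, the hexokinase Hk1 with a mean of 0.1% and the regulator Pfkfb2 with 0.0943%.

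**Figure D1:**
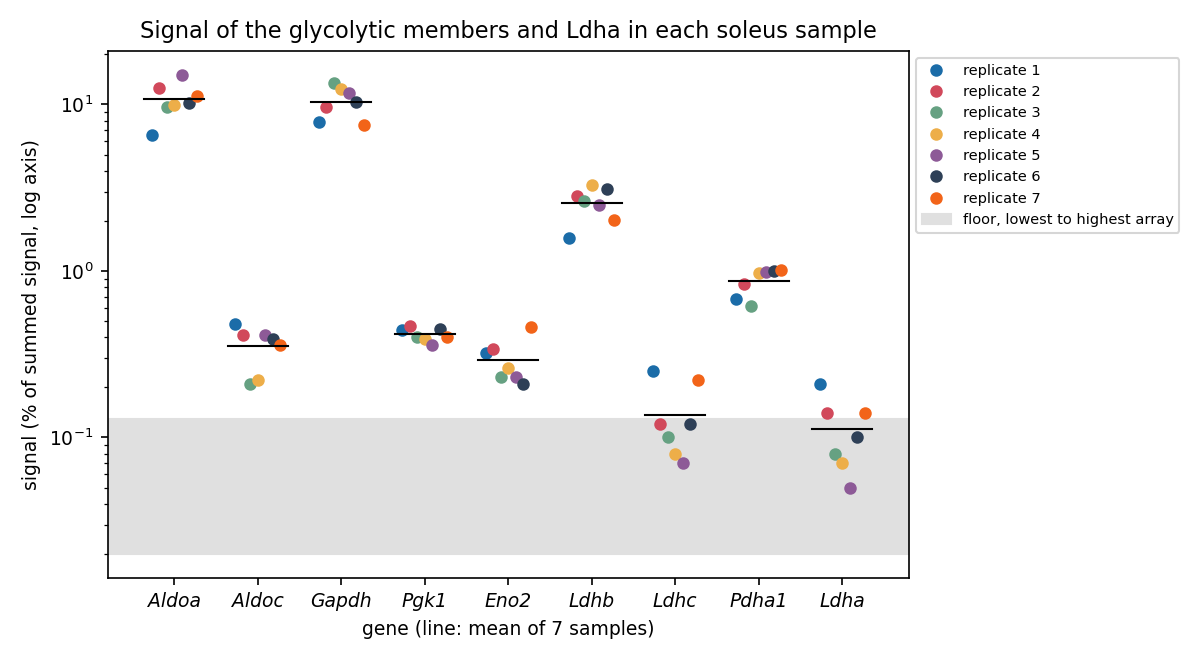
Signal of each member and of Ldha in the 7 soleus samples, in percent of the array sum on a log axis. Points are samples, lines are means, and the grey band spans the floors of the arrays from 0.02% to 0.13%; Ldhc and Ldha fall in or just above that band, and the points of Pgk1 lie closest together.

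The spread of the members above the floor was close to that of all genes above it. The median coefficient of variation was 23.4% for the 7 members above the floor and 23.4% for all 44 genes above it. Ldhc, at 51.0%, was close to the median of 53.2% for genes near the floor.

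The aldolase ratio was highest in replicates 3 and 4. Aldoa over Aldoc was 13.7, 30.6, 45.7, 45.2, 36.8, 26.3 and 31.4 in replicates 1 to 7, a log2 ratio of 4.95 ± 0.594 (SD, n = 7). Its size depends on the primers and probes, so only its change between samples is described. Replicate 1, where Aldoa was lowest and Aldoc highest, had the lowest ratio. The SD of the log2 ratio, 0.59, was larger than that of Aldoa, 0.37, and that of Aldoc, 0.47. The correlation of the isoenzymes did not pass: r was 0.0157 (exact permutation p = 0.970, 0.977 once adjusted; rho = 0.198, p = 0.670). It was 0.784 without replicates 1 and 5, and its sign turned after quantile normalization (r = -0.0408). With equal medians r was 0.813 and with the position trend removed 0.795, neither past the adjusted threshold (adjusted exact p = 0.258 and 0.177).

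The lactate dehydrogenase ratio has a denominator near the floor, and whether it varied more than the aldolase ratio depended on the scaling. Ldhb over Ldhc was 6.28, 23.4, 26.3, 40.9, 35.7, 25.8 and 9.14 in replicates 1 to 7, a log2 ratio of 4.33 ± 1.01 (SD, n = 7). The ratio was lowest in replicates 1 and 7, the arrays with the highest floors, 0.13% and 0.09%. As deposited, its SD was above the 0.59 of the aldolase ratio, while after quantile normalization it was 0.24 against 0.46. Ldhb over Ldha gave a similar course, from 7.48 in replicate 1 to 50.0 in replicate 5. The log2 ratio was 4.61 ± 0.986 (SD, n = 7), and the SD was 0.24 after quantile normalization. The part of the floor in these ratios was not tested. Ldhb and Ldhc gave r = -0.796 and rho = -0.523 (exact permutation p of 0.0353 and 0.240, with 0.0691 as the adjusted p of r), which did not pass, and r was 0.260 without replicates 1 and 7. Without replicate 5 alone the pair passed (r = -0.928, adjusted exact p = 0.0375).

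**Figure D2:**
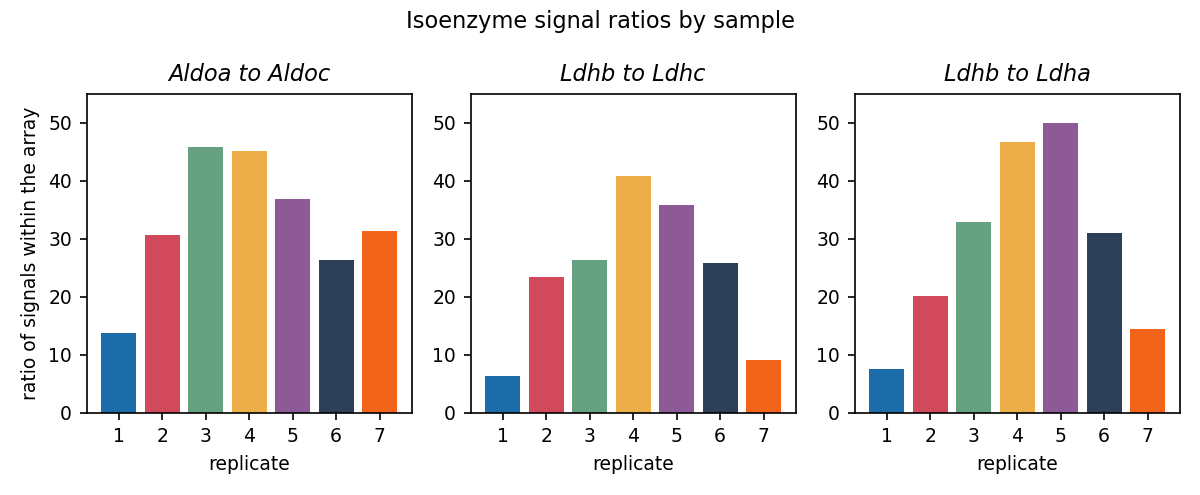
Ratio of the signals of 2 isoenzymes within each array, by replicate, for Aldoa to Aldoc, Ldhb to Ldhc and Ldhb to Ldha, on axes from 0. Bars are single samples; replicate 1 is lowest in all 3 panels, at 13.7, 6.28 and 7.48.

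Covariation was tested on log2 of the deposited values over every pair of the 203 genes. Each pair had a two-sided exact permutation test over the 5040 pairings of the samples, adjusted by Benjamini-Hochberg over all 20503 pairs. Of the 28 pairs of members, 1 passed, against 46.2% of all gene pairs. That share is made largely by genes near the floor, of whose pairs with each other 68.8% passed, against 6.87% of pairs of genes above it.

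The pair that passed was Gapdh and Ldhc, which went opposite ways. Pearson's r was -0.903 (exact permutation p = 0.0115, adjusted p = 0.0303) and rho was -0.811 (p = 0.0349, adjusted p = 0.0679). Of all gene pairs, 45% passed with a positive r and 1.17% with a negative r; of pairs that join a gene above the floor to one near it, 3.03% passed with a negative r. Pairs of genes above the floor passed in 6.87%, in either direction. Gapdh passed with a negative r against 89 of the 159 genes near the floor, and against 6 of the 43 other genes above it. All 5 endothelial markers on the array were among these, the cadherin Cdh5 above the floor and Pecam1, Kdr, Flt1 and Tek near it. Both immune markers, Il1b and Il6, were too. The part of other cell types in the values of Gapdh was not tested. Ldhc in turn correlated with the floor of its array (r = 0.941, exact permutation p = 0.000397, adjusted p = 0.00288; rho = 1; r = 0.991 without replicates 1 and 5), as 67.5% of all genes did in either direction, and it was the only member to do so. Gapdh gave r = -0.761 with the floor (exact permutation p = 0.0425, adjusted p = 0.0594; rho = -0.811; r = -0.918 without replicates 1 and 5). Ldhc stayed between 1.92 and 3.5 times a floor that ran from 0.02% to 0.13%. Its r with the floor was thus largely set by that closeness and is a description. All spots of an array share 1 sum, and the part of the floor in the pair was not tested. The r of Gapdh and Ldhc was -0.588 without replicates 1 and 7, and the pair did not pass without any of replicates 1, 2, 4, 5, 6 or 7 (adjusted exact p from 0.0558 to 0.0888). It was -0.127 after quantile normalization and -0.0928 with equal medians, but -0.850 with the position trend removed and -0.928 with 0.5 times the floor subtracted.

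No pair of members next to each other in the order of the measured steps passed as deposited. Aldoc and Gapdh gave r = -0.715 (exact permutation p = 0.0778, 0.128 once adjusted) and rho = -0.577. Without replicates 3 and 4 r was -0.0546. Aldoa and Gapdh gave r = 0.301 and rho = -0.143 (exact permutation p of 0.532 and 0.783, with 0.615 as the adjusted p of r), and -0.704 without replicates 1 and 5. After quantile normalization r was -0.400, with equal medians 0.907 and with the position trend removed 0.929, none past the adjusted threshold (adjusted exact p = 0.762, 0.102 and 0.0636). Gapdh and Pgk1 gave r = -0.418 and rho = -0.432 (exact permutation p of 0.345 and 0.329, with 0.434 as the adjusted p of r), and -0.747 without replicates 1 and 7. This turned to 0.435 after quantile normalization and to 0.982 with equal medians. Pgk1 and Eno2 gave r = 0.194 and rho = 0.173 (exact permutation p of 0.679 and 0.710, with 0.743 as the adjusted p of r), and 0.197 without replicates 2 and 7. After quantile normalization it was -0.0205. Ldhb and Pdha1, whose enzymes both use pyruvate, gave r = 0.372 and rho = 0.0714 (exact permutation p of 0.431 and 0.906, with 0.520 as the adjusted p of r), and 0.412 without replicates 1 and 7.

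Whether the pathway appeared to vary as a unit depended on the scaling. Among the 21 pairs of the 7 members above the floor, the median r was 0.0157 as deposited, with 11 pairs positive, beside 0.123 over all 946 pairs of genes above the floor. After quantile normalization it was 0.0927 beside 0.0142. With arrays scaled to equal medians it was 0.852, with all 21 pairs positive, beside 0.801 over all pairs of genes above the floor. With the position trend removed it was 0.795 beside 0.670. In the last 3 scalings 0 of the 28 member pairs and 0 of all gene pairs passed the adjusted exact test, with 1, 15 and 19 member pairs at an unadjusted p under 0.05. The share of all gene pairs at that unadjusted p was 11.2%, 16.9% and 25.2%. Equal medians shifted the median gene of an array by -0.92 to 0.82 log2 units. The pairs share samples and genes, so these medians are descriptions.

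**Figure D3:**
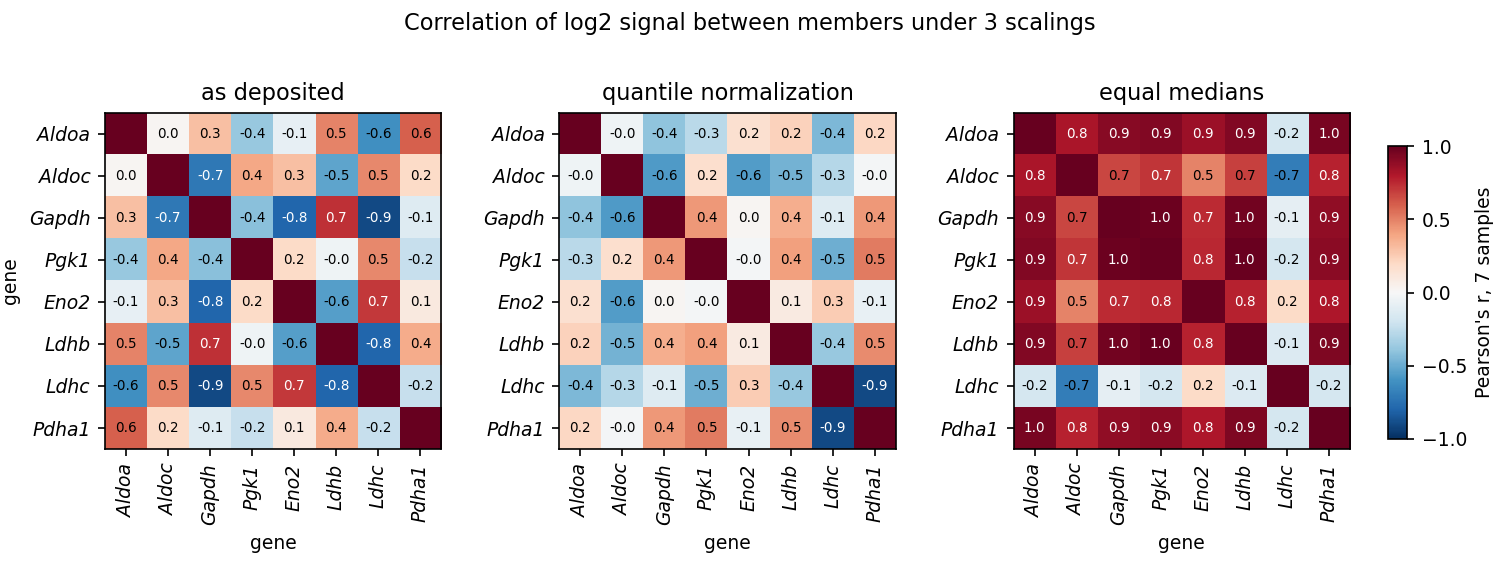
Pearson's r of log2 signal over the 7 samples for each pair of members, as deposited, after quantile normalization and with arrays scaled to equal medians; red is positive and blue negative, and cells show r to 1 decimal. As deposited, 11 of the 21 pairs without Ldhc are positive, and with equal medians all 21 are.

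Set against the other genes above the floor, Gapdh was most like the slow myosin and a cytochrome oxidase subunit. Both were picked for having the highest r with it, and their p-values were adjusted over all gene pairs. Myh7, the slow myosin heavy chain, was at 6.97%, 7.87%, 12.64%, 10.6%, 8.98%, 8.48% and 6.82% in replicates 1 to 7, the same order of samples as Gapdh. The pair gave r = 0.952 and rho = 1 (exact permutation p of 0.00139 and 0.000397, with 0.00909 as the adjusted p of r), and 0.950 without replicates 1 and 7. Cox6a2, the muscle subunit VIa of cytochrome oxidase, was at 4.31%, 7.13%, 11.2%, 9.14%, 7.4%, 6.5% and 4.77%. It gave r = 0.959 with Gapdh (exact permutation p = 0.00159, 0.00909 once adjusted; rho = 0.929, p = 0.00675), and 0.885 without replicates 1 and 7. Both pairs passed with each replicate left out in turn (r from 0.942 to 0.973 for Myh7 and from 0.947 to 0.973 for Cox6a2). The r of Gapdh and Myh7 was 0.974 after quantile normalization, 0.995 with equal medians and 0.961 with the position trend removed. For Cox6a2 these were 0.918, 0.992 and 0.983. Neither pair passed the adjusted threshold in those scalings (adjusted exact p from 0.0811 to 0.426), nor when adjusted over genes above the floor alone (0.161 for both). Over all pairs of genes above the floor, the median r was 0.0142 after quantile normalization. It was 0.801 with equal medians and 0.670 with the position trend removed, so a high r was common in these 2 scalings. The next most like gene for Gapdh was Rps29, a ribosomal protein gene, whose r of 0.776 did not pass (adjusted exact p = 0.0530). The spots of Gapdh, Cox6a2 and Myh7 are 19L, 15L and 14O.

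**Figure D4:**
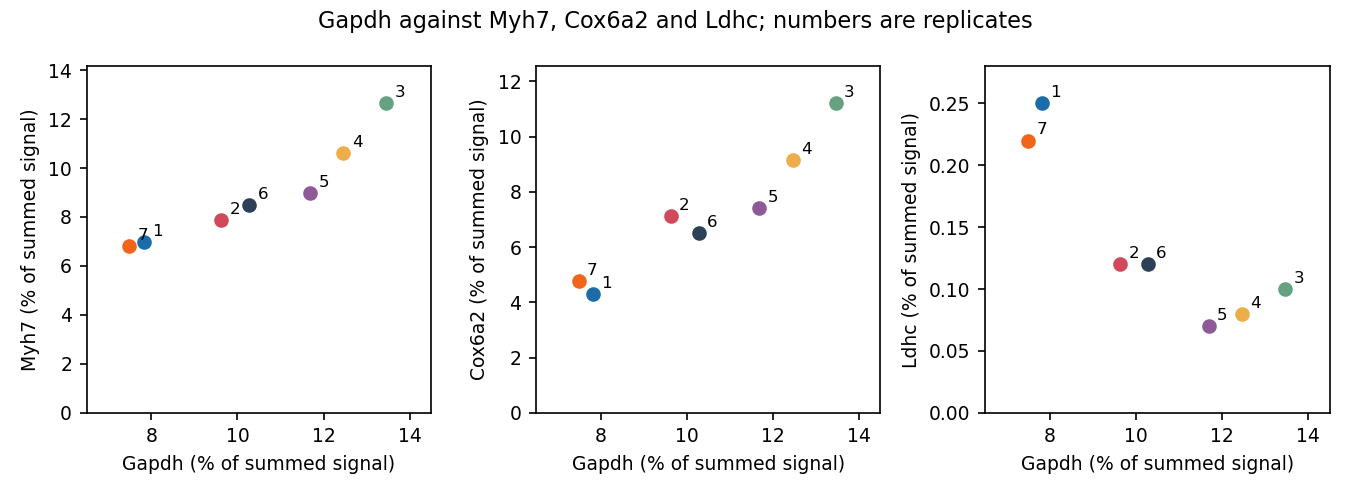
Gapdh against Myh7, Cox6a2 and Ldhc in the 7 samples, each axis in percent of the array sum; points are samples with their replicate number. Myh7 and Cox6a2 are highest in replicate 3 and low in replicates 1 and 7, as Gapdh is, while Ldhc is highest in those 2 replicates, at 0.25% and 0.22%.

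Aldoc went against the myosins of slow and IIa fibres. It gave r = -0.919 with Myh2 (exact permutation p = 0.0159, 0.0378 once adjusted; rho = -0.721, p = 0.0794) and -0.857 with Myh7 (exact permutation p = 0.0202, 0.0450 once adjusted; rho = -0.577, p = 0.186). Both rest on replicates 3 and 4, where Aldoc was low, with r of -0.225 and -0.0895 without them. Both turned positive with equal medians, at 0.529 and 0.594, and with the position trend removed. They stayed negative after quantile normalization (-0.724 and -0.583) and with 0.5 times the floor subtracted (-0.907 and -0.810), none past the adjusted threshold. Aldoc also correlated with Cdh5, the cadherin of endothelium (r = 0.910, exact permutation p = 0.0183, 0.0419 once adjusted; rho = 0.667, p = 0.116), at 0.203 without replicates 3 and 4. The part of endothelial cells in the values of Aldoc was not tested. The 28S ribosomal RNA spot gave r = 0.898 with Aldoc, which did not pass (adjusted exact p = 0.0544). Aldoc gave r = 0.875 with Acadm, a dehydrogenase of fatty acid oxidation (exact permutation p = 0.00635, 0.0202 once adjusted; rho = 0.845, p = 0.0226), and 0.717 without replicates 3 and 4. The Aldoc and Myh2 pair did not pass with any single replicate left out (adjusted exact p from 0.0551 to 0.109). The pairs with Myh7, Cdh5 and Acadm did not pass without any of replicates 1, 2, 3, 4 or 6 (adjusted exact p up to 0.165), and those with Myh7 and Cdh5 not without replicate 5 either (0.0605 and 0.0636). Adjusted over genes above the floor alone, none of the 4 passed (adjusted exact p of 0.218 for Acadm and 0.326 for each of the others). After quantile normalization the pairs with Cdh5 and Acadm gave r of 0.534 and 0.923. With equal medians these were 0.889 and 0.765, and with the position trend removed 0.855 and 0.878. Neither pair passed the adjusted threshold in these scalings. Over all pairs of genes above the floor, the median r was 0.801 with equal medians and 0.670 with the position trend removed.

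Eno2 was most like Ucp3, a mitochondrial uncoupling protein, Dgat1, an enzyme of triglyceride synthesis, and Pole2, a DNA polymerase subunit. The spot of Eno2 is 6N, and theirs are 3O, 4N and 3M. It gave r = 0.942 with Ucp3 (exact permutation p = 0.00437, 0.0162 once adjusted; rho = 0.847, p = 0.0246), and 0.852 without replicates 2 and 7. With Dgat1 r was 0.914 (exact permutation p = 0.00714, 0.0216 once adjusted; rho = 0.718, p = 0.0750), and 0.780 without those replicates. With Pole2 it was 0.851 (exact permutation p = 0.0151, 0.0364 once adjusted; rho = 0.718, p = 0.0750), and 0.593 without them. All 4 genes were highest in replicate 7, and none of the 3 pairs passed without it (adjusted exact p = 0.0769, 0.106 and 0.320). None passed without replicate 1 either (adjusted exact p = 0.0589, 0.0774 and 0.0992). The pair with Dgat1 was also lost without replicate 2, 3 or 4 (adjusted exact p up to 0.0595), and that with Pole2 without replicate 2, 3, 4 or 5 (up to 0.0760). Adjusted over genes above the floor alone, the 3 pairs did not pass (adjusted exact p = 0.196, 0.218 and 0.324). After quantile normalization r was 0.818, 0.712 and 0.412, and with equal medians 0.777, 0.328 and 0.645. With the position trend removed it was 0.320, -0.445 and 0.326. None of these passed the adjusted threshold (adjusted exact p from 0.275 to 0.766). With 0.5 times the floor subtracted, only the pair with Ucp3 passed (r = 0.906, adjusted exact p = 0.0485). The part of position in these pairs was not tested further.

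Aldoa, Pgk1, Ldhb and Pdha1 had no gene above the floor that passed with them. Aldoa was most like the cytochrome oxidase subunit Cox4i1, the fatty acid oxidation enzyme Hadh and the lipoprotein lipase Lpl, with r of 0.710, 0.464 and 0.423 over the 7 samples. Pgk1 was most like the glucose transporter Slc2a2, the mitochondrial malate dehydrogenase Mdh2 and the fatty acid binding protein Fabp4, with r of 0.780, 0.775 and 0.761. Ldhb was most like the cytochrome oxidase subunits Cox6a2, Cox4i1 and Cox8a, with r of 0.751, 0.743 and 0.693. Pdha1 was most like the muscle transcription factor Mef2c, Lpl and the fatty acid oxidation enzyme Acadl, with r of 0.801, 0.731 and 0.697. These genes are the 3 highest of 44 above the floor by choice, so their r is a description. For Ldhc the search ran over all 203 genes and gave Pold1, Nos3 and Lamb2, with r of 0.991, 0.987 and 0.987, and 142 of the 158 other genes near the floor passed with a positive r. Of the 44 genes above the floor, 5 passed with Ldhc with a positive r and 2 with a negative r. Beside these counts, 68.8% of all pairs of genes near the floor passed, and 3.03% of pairs across the floor passed with a negative r. The share of pairs across the floor that passed with a positive r was not counted. Over all gene pairs, 45% passed with a positive r and 1.17% with a negative r.

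Pairs of members with the genes of fixed lists gave the following counts. With the 4 further glycolysis genes, 5 of 32 pairs passed, and 4 of them held Ldhc with another gene near the floor, among them Ldha (r = 0.925, adjusted exact p = 0.00909), which turned to -0.281 after quantile normalization. With 5 genes of glucose transport and insulin reception, 4 of 40 passed with a positive r, all with Ldhc, and 3 with a negative r, all with Gapdh. Slc2a4, the insulin-responsive transporter, was at 0.516% ± 0.0909 (SD, n = 7) and was in none of these 7 pairs. With 5 genes for citrate cycle and respiratory enzymes, 3 of 40 passed, namely Gapdh with Cox6a2 and with Tfam, and Ldhc with Tfam. With 4 myosin heavy chains, 3 of 32 passed, which are those of Gapdh and Aldoc given above. With the cell type markers, 3 of 64 pairs passed for muscle, 12 of 40 for endothelium, 1 of 16 for adipocytes and 5 of 16 for immune cells. Beside the pairs of Aldoc, Gapdh and Ldhc, these include Eno2 with Kdr and with Il6, both positive, and Ldhb with Pecam1, negative, all 3 markers near the floor. Among all 159 genes near the floor, Eno2 passed with a positive r with 11, and Ldhb with a negative r with 7. Of the 12 endothelial pairs, 8 did not hold Ldhc. The shares differ in their background: 68.8% of pairs of genes near the floor passed, 6.87% of pairs above it, and 3.03% of pairs across it passed with a negative r. The share of pairs across the floor that passed with a positive r was not counted. The positive pairs of Eno2 with Kdr and Il6, and of Ldhc with Slc2a2, thus have no matching share beside them.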

How the data were processed

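The deposited values are linear ratios, made by the authors for 223 spots on 7 arrays. Per the labels' protocols, RNA was copied into radioactive cDNA from primers specific to each gene. The software and background treatment were not given in the sources used here. Each deposited column summed to 0.9986 to 1.0002 when spot 1M and that of 28S rRNA were left out, so the ratio was read as a share of that sum and multiplied to percent. These are not counts; precision is limited by how many arrays there are. Replicates were numbered in accession order.

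Of 205 named spots, 204 had their Entrez identifier in the RefSeq gene table, and all 8 members matched by symbol. Spots of 1 gene were averaged on the log2 scale, with no pseudocount. Quantile normalization leaves only ranks, and the deposited table already is scaled, so log2 of deposited values was the main scale. The pair test was an exact permutation test adjusted over all pairs (Python 3.11.15, numpy 2.4.6), tested on simulated data. Pairs were called at an adjusted p under 0.05. For a correlation, r is given again without the 2 samples farthest from the median of the x axis measure (the first gene named alphabetically among members, the member against another gene, or the floor).

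Named genes were the members, the 3 genes most like each of them and fixed pathway lists. The members and lists were chosen with earlier results of these data known. Alternatives were quantile normalization, equal medians, 0.5 times the floor subtracted, a quadratic position trend removed, Spearman's rho, genes above the floor only, other floor limits, and each replicate left out. The Ldhb to Ldha ratio and the pairs with other genes were added after seeing the data.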

Additional observations from a re-analysis of the deposited data

How the results depend on the processing

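The levels of all 8 members and the 3 isoenzyme log2 ratios moved by less than 1 SD under every alternative run for them. With each replicate left out, the Aldoa to Aldoc log2 ratio ran from 4.85 to 5.14, the Ldhb to Ldhc log2 ratio from 4.16 to 4.61, and members above the floor stayed at 7. That count was 8 at 1.5 times, 6 at 3 times the 10th percentile, without Eno2, and 7 at 2 times the 20th percentile, beside 33.5%, 15.8% and 19.7% of all genes. The count of correlated member pairs was 0 under quantile normalization, equal medians, the position trend removed, Spearman's rho and genes above the floor only, and from 0 to 1 with a replicate left out (Gapdh and Ldhc without replicate 3, Ldhb and Ldhc without replicate 5). Of all gene pairs, 45.1% passed with Spearman's rho, 0 in the other 4 of these settings, and 22.4% to 39.0% with a replicate left out. At an unadjusted exact p under 0.05 the 5 settings gave 1, 15, 19, 1 and 1 member pairs, beside 11.2%, 16.9% and 25.2% of all pairs in the first 3. Members that correlated with the floor were 0 under quantile normalization (1 unadjusted) and 5 with the position trend removed (25.1% of all genes), all 5 with a negative r. They were 2 with Spearman's rho (72.4%) and from 1 to 3 with a replicate left out (46.3% to 67.0%). With equal medians the count was 1 (5.91%), Aldoa with a negative r of -0.952. Ldhc, whose r was positive as deposited, gave 0.324 there and did not pass. The cause of these changes was not tested.

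Signs turned in the following values. Under quantile normalization r was -0.0408 for Aldoa and Aldoc, -0.400 for Aldoa and Gapdh, 0.435 for Gapdh and Pgk1, -0.0205 for Eno2 and Pgk1, -0.281 for Ldha and Ldhc, and -0.263 for Pgk1 with the floor. With equal medians it was 0.982 for Gapdh and Pgk1, 0.529 for Aldoc and Myh2, 0.594 for Aldoc and Myh7, and -0.896, -0.867 and -0.735 for Aldoc, Pgk1 and Eno2 with the floor. With the position trend removed it was 0.963 for Gapdh and Pgk1, 0.103 for Aldoc and Myh2, 0.319 for Aldoc and Myh7, -0.445 for Dgat1 and Eno2, -0.463 for Ldha and Ldhc, and -0.810, -0.919 and -0.808 for Aldoc, Pgk1 and Eno2 with the floor. With 0.5 times the floor subtracted, Eno2 and Pgk1 gave -0.155. Spearman's rho was -0.143 for Aldoa and Gapdh and 0.0180 for Pdha1 with the floor. With a replicate left out, r ran from -0.190 to 0.726 for Aldoa and Aldoc, from -0.211 to 0.478 for Aldoa and Gapdh, from -0.0310 to 0.509 for Eno2 and Pgk1, and from -0.0534 to 0.625 for Ldhb and Pdha1. No paired analysis was possible because the series has 1 group.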

Other observations

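Gapdh is often used as a reference gene, so Aldoa and Pgk1 were also set against it within each array, as values only. Ratios between other members follow. Aldoa over Gapdh was 0.840, 1.30, 0.713, 0.798, 1.29, 0.999 and 1.51 in replicates 1 to 7, lowest in replicate 3 and highest in replicate 7. The SD of this log2 ratio was 0.41, against 0.37 for Aldoa and 0.33 for Gapdh as deposited. Gapdh over Pgk1 ran from 17.8 in replicate 1 to 33.7 in replicate 3, with an SD of 0.40 on the log2 scale against 0.13 for Pgk1 alone. Pgk1 over Eno2 was 0.870 in replicate 7 and from 1.38 to 2.14 in the other 6 samples. Ldhb over Pdha1, the signals of the genes for the lactate and the mitochondrial branch, ran from 1.97 in replicate 7 to 4.24 in replicate 3. With Aldoa, Gapdh and Ldhb left out of the sum, the coefficient of variation of Pgk1 was 8.35%, against 9.30% with them.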
